A study of Mus musculus with 12 samples.

Results

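The keratins described here are 8 genes, Krt5, Krt7, Krt8, Krt14, Krt15, Krt17, Krt18 and Krt19, taken by symbol from the 56065 gene identifiers of the deposited table. All 8 passed the filter on low counts, as did 17893 genes in all. Bulk RNA was sequenced from 12 mouse submandibular glands (SMGs) at 8 weeks of age, in 4 groups of 3 mice. Each sex was represented by wild-type C57BL/6J mice and by the C57BL/6J-Pou2f3-/- strain, labelled C57BL/6J-Pou2f3 knockout. Pou2f3 is the transcription factor that defines tuft cells (TCs), which are rare chemosensory cells of the ducts, and the knockout removes it in every tissue. The study set knockout against wild type within each sex, and it used KRT8 protein to mark the ducts in which TCs lie. The RNA came from whole glands, so that fewer cells of a type and less RNA per cell cannot be told apart.

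Keratins are the intermediate filament proteins of epithelia, and each filament is built from a type I keratin paired with a type II keratin. Simple epithelia such as gland ducts and acini use KRT8 (type II) with KRT18 (type I), to which ducts add KRT7 (type II) and KRT19 (type I), whereas basal and myoepithelial cells use KRT5 (type II) with KRT14 (type I). KRT15 and KRT17 are type I keratins of basal cells, and KRT17 is also known for its induction in wounded epithelium. In the mouse SMG the ducts differ between the sexes, since males have large granular convoluted tubules.

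On GRCm39, the type II genes lie on chromosome 15, namely Krt7 (ENSMUSG00000023039.18, 101308924 to 101328194, plus strand), Krt5 (ENSMUSG00000061527.8, 101615505 to 101621346, minus strand) and Krt8 (ENSMUSG00000049382.11, 101905133 to 101912917, minus strand). The type I gene Krt18 (ENSMUSG00000023043.8, 101936615 to 101940462, plus strand) lies beside Krt8 and is transcribed away from it. The other type I genes lie on chromosome 11 on the minus strand, namely Krt15 (ENSMUSG00000054146.9, 100022584 to 100026775), Krt19 (ENSMUSG00000020911.15, 100031636 to 100039491), Krt14 (ENSMUSG00000045545.9, 100093988 to 100098490) and Krt17 (ENSMUSG00000035557.10, 100147040 to 100151974).

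The upstream sequences of Krt7, Krt8 and Krt18 are shown because Krt7 had the smallest adjusted p between the sexes and because Krt8 and Krt18 are neighbours whose levels moved together. Each is the 250 bases before the RefSeq start on GRCm38.p6, written 5′ to 3′ on the gene's strand, and RefSeq entries were matched for 5 of the 8 genes (Krt5, Krt7, Krt8, Krt14 and Krt18). Krt7 is at chr15:101412153-101412402 (plus strand), Krt8 at chr15:102004343-102004592 (minus strand) and Krt18 at chr15:102027966-102028215 (plus strand). Capitals mark GGGCGG, the GC box, or GCCNNNGGC, the AP-2 motif, on either strand.
Krt7: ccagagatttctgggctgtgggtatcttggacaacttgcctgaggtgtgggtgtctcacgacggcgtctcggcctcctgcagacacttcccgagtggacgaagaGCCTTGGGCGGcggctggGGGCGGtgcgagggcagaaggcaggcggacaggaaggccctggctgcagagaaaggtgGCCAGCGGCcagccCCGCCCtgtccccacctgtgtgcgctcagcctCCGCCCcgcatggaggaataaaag
Krt8: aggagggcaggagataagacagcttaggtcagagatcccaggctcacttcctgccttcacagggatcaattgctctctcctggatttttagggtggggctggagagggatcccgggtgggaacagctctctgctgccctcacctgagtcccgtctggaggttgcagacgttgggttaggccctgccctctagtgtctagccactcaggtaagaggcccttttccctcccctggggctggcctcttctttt
Krt18: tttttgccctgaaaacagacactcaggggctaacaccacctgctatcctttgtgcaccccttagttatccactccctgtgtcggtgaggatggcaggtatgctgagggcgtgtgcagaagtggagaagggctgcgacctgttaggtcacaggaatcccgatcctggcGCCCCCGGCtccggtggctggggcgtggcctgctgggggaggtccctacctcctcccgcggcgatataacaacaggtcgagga

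The Krt7 stretch held 4 GC boxes and 2 AP-2 motifs, and the first GC box overlapped the first AP-2 motif. Krt18 held 1 AP-2 motif, and the stretches of Krt5, Krt8 and Krt14 held neither. Of 32851 RefSeq promoters of this length, 32.7% held at least 1 GC box and 13.7% at least 1 AP-2 motif. On both strands, none of the 5 stretches held TATAAA, a core promoter box (12.4% of promoters), TGANTCA (AP-1, 6.75%), TGTTCT (one arm of a steroid receptor site, 16.1%) or the full androgen response element, which contains that arm (0.00913%). These matches are descriptions of letters and not binding sites.

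Members of the family also share coding sequence, which bears on how reads are divided between them. The longest identical runs between the coding sequences of any 2 of the 8 genes joined Krt14 (coding bases 1216 to 1286) with Krt17 (1105 to 1175), over 71 bases, and Krt15 (362 to 411) with Krt17 (320 to 369), over 50 bases. Both runs are shorter than the reads of these libraries, so that only a part of a read can fall within one, and they are shown as the longest stretches that match in both genes.
Krt14 and Krt17: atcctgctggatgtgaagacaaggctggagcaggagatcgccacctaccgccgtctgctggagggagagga
Krt15 and Krt17: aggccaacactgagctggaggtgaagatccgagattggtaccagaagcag

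Over whole transcripts, the share of words of 31 bases that also occur in a transcript of another gene was 32.3% for Krt8, 27.3% for Krt14, 14.7% for Krt17, 12.8% for Krt5, 11.4% for Krt18, 3.89% for Krt15, 3.17% for Krt7 and 0.517% for Krt19. Nearly all of the Krt8 share came from its pseudogene Krt8-ps, which had at most 8 counts in any library against 3040 to 8381 for Krt8. Krt5 shared 9.4% of its words with the keratin gene Krt6a, which had at most 88 counts in any library against 522 to 1308 for Krt5. How reads were divided between Krt5 and Krt6a was not tested. Krt14 shared 17.0% of its words with Krt16, which had at most 1 count, and 10.1% with Krt17. The Krt14 and Krt17 counts are uncertain to the extent that reads from these words were divided between them, and that extent was not tested.

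The deposited estimated counts summed to between 47032175 and 67882207 per library, and the 20 most abundant genes took 51.8% to 79.3% of them. Levels are given as CPM, counts scaled to the library total, after edgeR's TMM adjustment, whose factors ran from 0.625 to 1.45 and were lowest in wild-type females (0.625 to 0.759). Pou2f3 itself had 1, 0 and 2 counts in females with the gene intact and 0 in all 3 without it, and 1, 10 and 0 counts against 0, 3 and 1 in males, which was too few to check the genotype labels. Some libraries stood apart in markers of other cells. Summed immune markers stood at 89.2 CPM in wild-type female 1 and at 16.7 to 39 CPM in the other libraries, while summed adipocyte markers stood at 41.2 CPM in wild-type female 3, 31.5 in knockout male 2 and 15.1 in knockout male 3, against at most 5.50 elsewhere.

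Per kilobase of merged exons, Krt18 and Krt8 led in all 4 groups and Krt15 came last. In wild-type females the mean levels were 80.9 ± 13.4 CPM per kilobase for Krt18 (SD, n = 3), 48.9 ± 6.96 for Krt8, 6.97 ± 0.588 for Krt5, 6.25 ± 0.267 for Krt14, 4.96 ± 0.297 for Krt7, 2.29 ± 0.461 for Krt17, 1.09 ± 1.08 for Krt19 and 0.658 ± 0.381 for Krt15. Ranges of the 3 mice overlapped between the neighbours Krt5 and Krt14, Krt17 and Krt19, and Krt19 and Krt15, and were apart for the others. In wild-type males the order was Krt18 (104 ± 7.12), Krt8 (54.5 ± 5.53), Krt7 (13.9 ± 0.564), Krt14 (8.59 ± 0.664), Krt5 (7.37 ± 0.488), Krt17 (3.7 ± 0.356), Krt19 (2.91 ± 0.311) and Krt15 (0.0880 ± 0.0396), with overlap only between Krt14 and Krt5.

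Krt7 thus had rank 5 in wild-type females and rank 3 in wild-type males. In knockout females it had rank 3 at 5.68 ± 0.285 CPM per kilobase, within the range of Krt5 (5.56 ± 0.731), and in knockout males rank 3 at 12.5 ± 1.45. Its place depended on the length used: with the longest coding transcript of 4094 bases in place of 7049 bases of merged exons, Krt7 had rank 3 in every group, at 8.53 in wild-type females and 23.9 in wild-type males.

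The simple epithelial pair Krt8 and Krt18 made up 85.2% ± 2.55 (SD, n = 3) of the summed level of the 8 keratins per kilobase in wild-type females and 83.2% ± 2.30 in knockout females. In males the share was 81.2% ± 1.08 for wild type and 80.2% ± 3.60 for knockout. The basal pair Krt5 and Krt14 made up 8.78% ± 0.968, 8.63% ± 1.46, 8.18% ± 0.424 and 8.16% ± 1.32 in the same order of groups. Krt7 alone made up 3.30% ± 0.523, 4.63% ± 0.233, 7.14% ± 0.622 and 6.56% ± 0.271, so that its share was above 6% in every male and under 5% in every female. With the longest coding transcript as the length its share was 5.04% to 6.51% in wild-type and 7.26% to 7.90% in knockout females, and 10.3% to 12.2% in the 6 males. The summed level was 152 ± 19.5 CPM per kilobase for wild-type and 123 ± 11.7 for knockout females, and 195 ± 11.6 for wild-type and 191 ± 20.9 for knockout males.

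**Figure D1:**
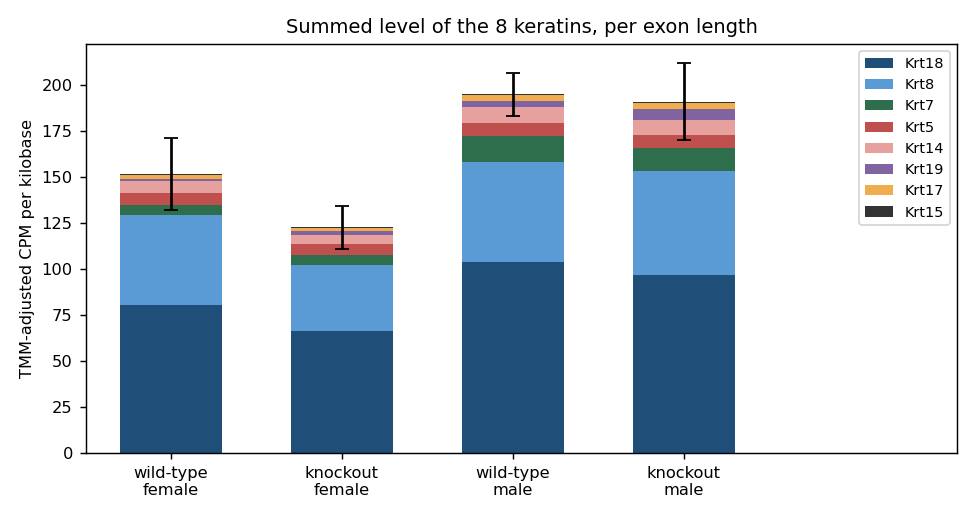
Stacked bars show the mean TMM-adjusted CPM per kilobase of merged exons of each keratin in the 4 groups of 3 mice, and error bars show the SD of the sum over mice. Krt18 and Krt8 fill most of each bar, and the sums run from 123 in knockout females to 195 in wild-type males.

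In females, Krt8, Krt14 and Krt17 fell in the knockout and no keratin of the 8 rose. A gene was called where the p of edgeR's quasi-likelihood test, adjusted over the 17893 genes by the Benjamini-Hochberg method, was under 0.05. The comparison called 36.9% of all genes, 17.6% higher and 19.3% lower, so that 3 of 8 was near the background. The median log2 fold change of the 8 was −0.30, against 0.03 over all genes tested and −0.08 over the protein-coding genes.

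Krt8, the ductal type II keratin, had 80.5, 107 and 100 CPM in wild-type females and 76.6, 69.2 and 65.2 in knockout females. Every knockout female lay below every wild-type female. Krt8 fell by 26.6% (log2 fold change −0.45, SE 0.12, edgeR adjusted p = 0.014). Of 7 markers of acini, whose cells also carry KRT8, 3 fell in the same comparison and none rose (median log2 fold change −0.25), against 19.3% of all genes lower. They were the water channel Aqp5 (−0.94, SE 0.16, edgeR adjusted p = 0.0011), the peroxidase Lpo (−0.93, SE 0.20, adjusted p = 0.0032) and the ion cotransporter Slc12a2 (−0.73, SE 0.24, adjusted p = 0.03). The groups did not overlap for these 3 of the 7 markers, against 49.3% of all genes tested. The part of acini in the Krt8 value was not tested. Its partner Krt18 had 96.7, 135 and 117 CPM in wild-type females and 111, 90.5 and 85.0 in knockout females, and these ranges overlapped. The Krt18 log2 fold change was −0.28 (SE 0.16, edgeR adjusted p = 0.19).

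Krt14, the basal type I keratin, had 12.3, 11.6 and 11.3 CPM in wild-type females and 8.81, 10.3 and 8.60 in knockout females, without overlap. It fell by 21.0% (log2 fold change −0.34, SE 0.12, edgeR adjusted p = 0.04). The type II partner Krt5 had 14.3, 16.9 and 15 CPM against 10.4, 13.2 and 13.2, also without overlap, with a log2 fold change of −0.32 that did not pass (SE 0.13, edgeR adjusted p = 0.076). Krt17 had 4.30, 2.94 and 4.25 CPM in wild-type females and 2.14, 2.37 and 3.07 in knockout females. Its ranges overlapped because wild-type female 2 lay below knockout female 3, and it fell by 34.2% (log2 fold change −0.60, SE 0.18, edgeR adjusted p = 0.019).

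The other ductal keratins did not pass in females. Krt7 had 36.3, 36.0 and 32.5 CPM in wild-type females and 41.8, 40.5 and 37.8 in knockout females, which did not overlap, and its log2 fold change was 0.20 (SE 0.10, edgeR adjusted p = 0.14). Krt19, a type I keratin of ducts, had 4.34, 0.718 and 1.02 CPM in wild-type females and 3.80, 5.57 and 3.17 in knockout females. Wild-type female 1 stood well above the other wild-type females and lay inside the knockout range, and the log2 fold change was 1.02 (SE 0.54, edgeR adjusted p = 0.16). Krt15, with only 27 to 84 counts in these libraries, had 0.525, 1.88 and 1.12 CPM against 0.959, 0.688 and 1.31 (log2 fold change −0.26, SE 0.54, edgeR adjusted p = 0.75). The groups of 4 of the 8 genes (Krt5, Krt7, Krt8 and Krt14) did not overlap, against 49.3% of all genes tested.

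Single libraries and the scaling moved these calls. Without wild-type female 1, which was also the library highest in immune markers, 6 of the 8 were called, and 7071 of 18437 genes in all. Krt5 (−0.44, adjusted p = 0.039) and Krt18 (−0.46, adjusted p = 0.033) joined the lower genes and Krt19 (2.22, adjusted p = 0.003) was higher. Wild-type female 1 also stood apart in duct markers, with summed intercalated duct markers at 448 CPM against 3400 and 3690 in the other wild-type females, and granular convoluted tubule markers at 4390 against 8320 and 7610. Each sum was mostly 1 gene. Over the wild-type females, Smgc ran from 414 to 3640 CPM in the first sum and Klk1 from 3880 to 7380 in the second. The part of immune or duct cells in the calls was not tested. Without knockout female 1 only Krt8 was called, and 5150 of 18491 genes in all. Krt17 then had an edgeR adjusted p of 0.053 and Krt14 of 0.073. Without knockout female 3 Krt14 had an adjusted p of 0.081. Under upper-quartile scaling, which called 6641 of 17893 genes, 3 of the 8 were again called. Krt7 was among them and was higher (0.30, adjusted p = 0.027), and Krt14 was not called (−0.24, adjusted p = 0.13). Krt8 was called lower under every alternative and with any 1 library left out.

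In males, no keratin of the 8 differed between the genotypes by edgeR or by DESeq2, and 1, Krt15, had an unadjusted p under 0.05. This comparison called 0.235% of all genes, and the median log2 fold change was −0.04 both for the 8 and for all genes tested (−0.03 over the protein-coding genes). Krt8 had 102, 119 and 99.0 CPM in the wild type against 117, 109 and 106 in the knockout (log2 fold change 0.05, SE 0.12, edgeR adjusted p = 0.92). Krt18 had 139, 159 and 152 CPM against 168, 120 and 129 (−0.11, SE 0.16, edgeR adjusted p = 0.86). The genotypes overlapped for both.

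For Krt7 the males had 98.0, 94.0 and 102 CPM in wild type and 98.4, 88.3 and 77.9 in knockout (log2 fold change −0.15, SE 0.10, edgeR adjusted p = 0.61). For the basal pair the genotypes overlapped, with Krt5 at 17.4, 15.2 and 16.2 CPM against 16.7, 18.6 and 13.3, and Krt14 at 14.7, 17.1 and 16.5 CPM against 15.4, 17.4 and 13.1. The log2 fold changes were −0.01 (SE 0.13) and −0.07 (SE 0.12), and the sign of the Krt5 value changed with the scaling. Krt17 had 5.52, 6.66 and 6.38 CPM against 6.33, 5.81 and 5.61 (−0.07, SE 0.17), with overlapping genotypes.

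Krt19 was the only one of the 8 whose male groups did not overlap, against 14.5% of all genes. Its levels were 5.92, 5.50 and 4.78 CPM in the wild type against 7.15, 17.8 and 7.07 in the knockout, in which knockout male 2 stood far above the others. The log2 fold change was 0.98 (SE 0.51, edgeR adjusted p = 0.50), and without knockout male 2 it was 0.40. Krt15 had 0.160, 0.227 and 0.0856 CPM in wild-type males, from 6 to 16 counts, and 0.307, 0.876 and 0.220 in knockout males, from 14 to 54 counts. Knockout male 2 was again the highest, the ranges overlapped, and the log2 fold change was 1.55 (SE 0.61, edgeR adjusted p = 0.33), or 0.73 to 1.90 with 1 library left out.

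**Figure D2:**
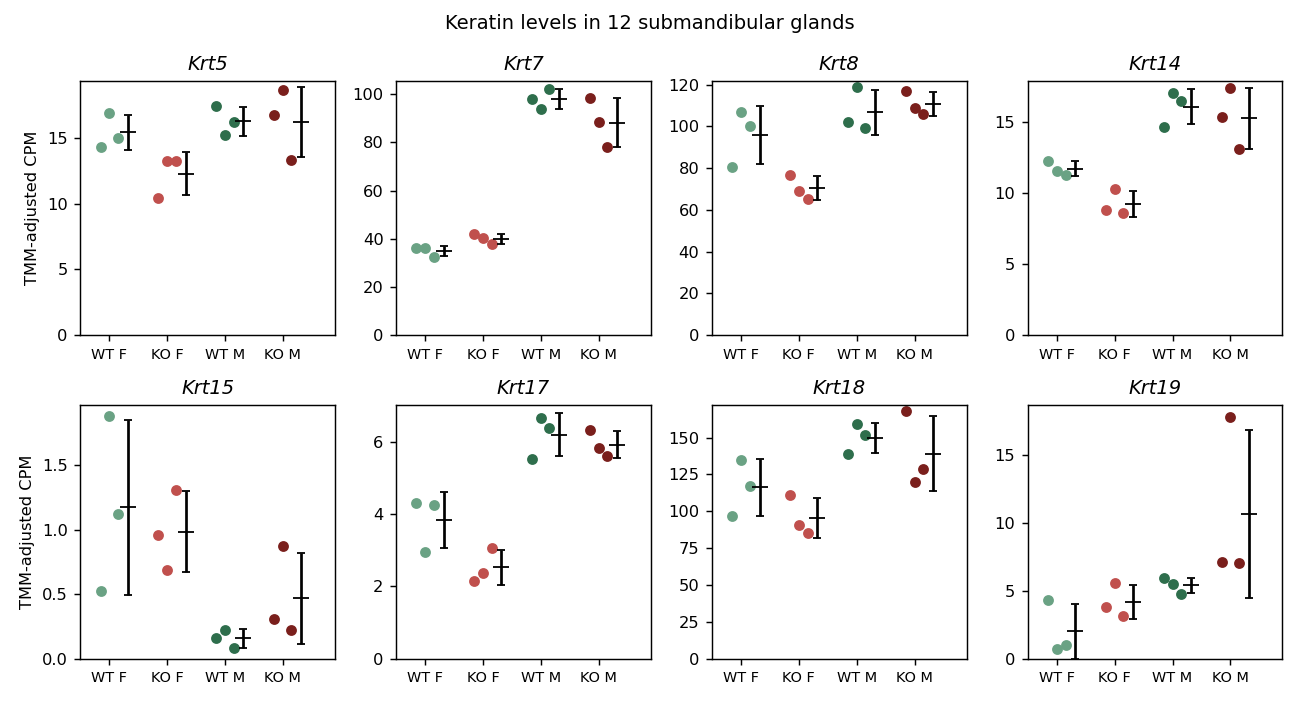
Points show TMM-adjusted CPM of each keratin in the 12 glands, by group (WT, wild type, KO, knockout, F, female, M, male), with the mean and SD of 3 mice beside them. Krt7, Krt14 and Krt17 were higher in every male than in every female, and knockout male 2 is the single high Krt19 point at 17.8 CPM.

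The difference between the sexes' genotype contrasts, female minus male, was tested as the interaction of sex and genotype. None of the 8 was called by edgeR, in a test that called 25.7% of all genes. The unadjusted p was under 0.05 for 4 of them, Krt8 (−0.50, SE 0.17, edgeR adjusted p = 0.052), Krt7 (0.35, SE 0.14, adjusted p = 0.085), Krt15 (−1.81, SE 0.82, adjusted p = 0.12, −2.27 to −1.0 with 1 library left out) and Krt17 (−0.54, SE 0.25, adjusted p = 0.12). DESeq2 called 1, Krt8 (−0.55, adjusted p = 0.012). The edgeR test also called Krt8 under RLE scaling (adjusted p = 0.039), the authors' factors (0.021), the 20 most abundant genes left out (0.031) or at least 10 counts in every library (0.033), and under upper-quartile scaling it called Krt7 (0.43, adjusted p = 0.035) and not Krt8. The call turned on single libraries too: Krt8 was called without knockout female 1 (adjusted p = 0.035), knockout female 2 (0.045), wild-type female 1 (0.0063) or wild-type male 2 (0.026), Krt15 without wild-type female 1 (0.044), Krt17 without knockout female 3 (0.042) or wild-type female 2 (0.028), and Krt7 without knockout male 1 (0.038). The Krt8 difference thus lay next to the threshold, and its call depended on the setting.

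Between wild-type males and females, 4 of the 8 differed, against 36.5% of all genes (20.5% higher in males and 16% lower). Krt7, Krt14 and Krt17 were higher in males and Krt15 was lower. The median log2 fold change of the 8 was 0.41, against 0.06 over all genes and 0.02 over the protein-coding genes. The groups of 6 of the 8 did not overlap (all but Krt5 and Krt8), against 47.6% of all genes tested.

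Krt7 showed the smallest adjusted p of the 8 here. Its 94.0 to 102 CPM in wild-type males were 2.80-fold the 32.5 to 36.3 CPM of the females (log2 fold change 1.49, SE 0.10, edgeR adjusted p = 3.5e-07), and leaving out any library kept the value between 1.43 and 1.51. Krt17 was 1.62-fold higher in males (log2 fold change 0.69, SE 0.17, edgeR adjusted p = 0.0073) and Krt14 1.37-fold higher (0.46, SE 0.12, edgeR adjusted p = 0.0089), each in 3 of 3 males above 3 of 3 females. Krt15 was 7.36-fold lower in males (−2.88, SE 0.61, edgeR adjusted p = 0.0027), a value that rests on 6 to 16 counts per male library.

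The basal partner of Krt14 behaved otherwise in the same test, since Krt5 differed by 0.08 on the log2 scale (SE 0.13, edgeR adjusted p = 0.67) and its ranges overlapped. Krt8 differed by 0.16 (SE 0.12, edgeR adjusted p = 0.35) and Krt18 by 0.37 (SE 0.16, edgeR adjusted p = 0.091). Whether Krt5 and Krt14 differ in their sex difference was not tested. Krt19 was 2.61-fold higher in males without passing (log2 fold change 1.39, SE 0.54, edgeR adjusted p = 0.06), and passed without wild-type female 1 (2.61, adjusted p = 0.001), without the low-count filter (1.39, adjusted p = 0.0064) and with the replicate number as a block (1.48, adjusted p = 0.049).

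In the knockout, 7 of the 8 were higher in males than in females, against 23.2% of all genes higher, 20.3% lower and 43.5% called in either direction. This comparison uses the same knockout females as the female genotype comparison. Krt17 was 2.35-fold higher (log2 fold change 1.23, SE 0.18, edgeR adjusted p = 0.00013), Krt7 2.20-fold (1.14, SE 0.10, adjusted p = 2.8e-06), Krt14 1.65-fold (0.73, SE 0.12, adjusted p = 0.00036) and Krt8 1.57-fold (0.65, SE 0.12, adjusted p = 0.001). Krt18 was 1.45-fold higher (0.54, SE 0.16, edgeR adjusted p = 0.016), Krt5 1.32-fold (0.40, SE 0.13, adjusted p = 0.029) and Krt19 2.54-fold (1.35, SE 0.52), the last just under the threshold at an adjusted p that rounds to 0.05. Krt15 had a log2 fold change of −1.07 (SE 0.56, edgeR adjusted p = 0.14). The groups of 7 of the 8 did not overlap, against 54.8% of all genes. The median log2 fold change of the 8 was 0.69, against −0.02 over all genes and 0.08 over the protein-coding genes.

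The last calls of that list were the least stable. Under upper-quartile scaling, which moved the median of all genes in this comparison to −0.18, 4 were called and Krt5 (0.23, adjusted p = 0.18), Krt18 (0.38, adjusted p = 0.055) and Krt19 (1.19, adjusted p = 0.082) were not. Krt19 also missed the threshold without knockout male 2 (0.77, adjusted p = 0.27), knockout female 1 (1.34, adjusted p = 0.11) or knockout female 3 (1.25, adjusted p = 0.13). Krt5 missed it without knockout female 1 (adjusted p = 0.079), knockout male 1 (0.067) or knockout male 2 (0.12), Krt18 without knockout male 1 (0.067), and Krt15 passed without knockout male 2 (−1.88, adjusted p = 0.024).

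**Figure D3:**
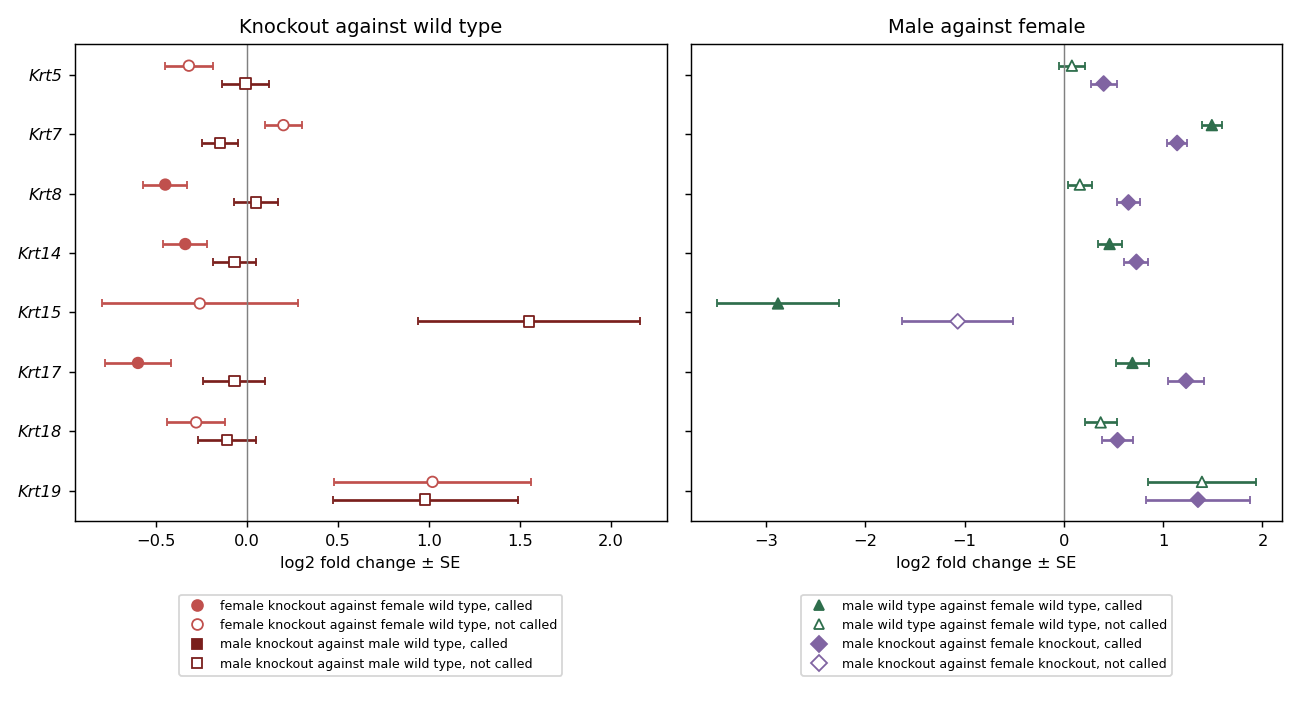
Log2 fold changes with standard errors from edgeR for the 8 keratins, knockout against wild type on the left and male against female on the right, where filled symbols mark an adjusted p under 0.05. The male genotype values of 6 keratins lie within 0.15 of 0, and Krt7 lies at 1.49 and 1.14 in the sex comparisons.

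Of all pairs of the 8 keratins, Krt8 and Krt18 were most alike within groups. Over the 12 libraries, Pearson's r of their log2 CPM was 0.90, and it was 0.82 once the group means were removed. For Krt5 with Krt14 it was 0.77 and 0.49. For Krt14 with Krt17, both type I, it was 0.90 but only 0.09 within groups, and for Krt7 with Krt15 it was −0.81 and −0.08. These values describe 12 libraries that share their groups and their scaling, and no test was made of them.

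The ratio of Krt8 to Krt18 per kilobase was 0.606 ± 0.0256 (SD, n = 3) in wild-type and 0.543 ± 0.0324 in knockout females. In males it was 0.523 ± 0.0394 for wild type and 0.594 ± 0.0757 for knockout. The ratio of Krt5 to Krt14 was 1.12 ± 0.118 and 1.13 ± 0.154 in wild-type and knockout females and 0.865 ± 0.127 and 0.894 ± 0.0318 in the males. Its ranges met, since the lowest female lay at 0.992 and the highest male at 1.00. The ductal ratio of Krt7 to Krt19 was the most variable, at 2.20, 13.2 and 8.41 in the 3 wild-type females, where wild-type female 1 stood apart, and 2.65 ± 0.648 in knockout females.

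**Figure D4:**
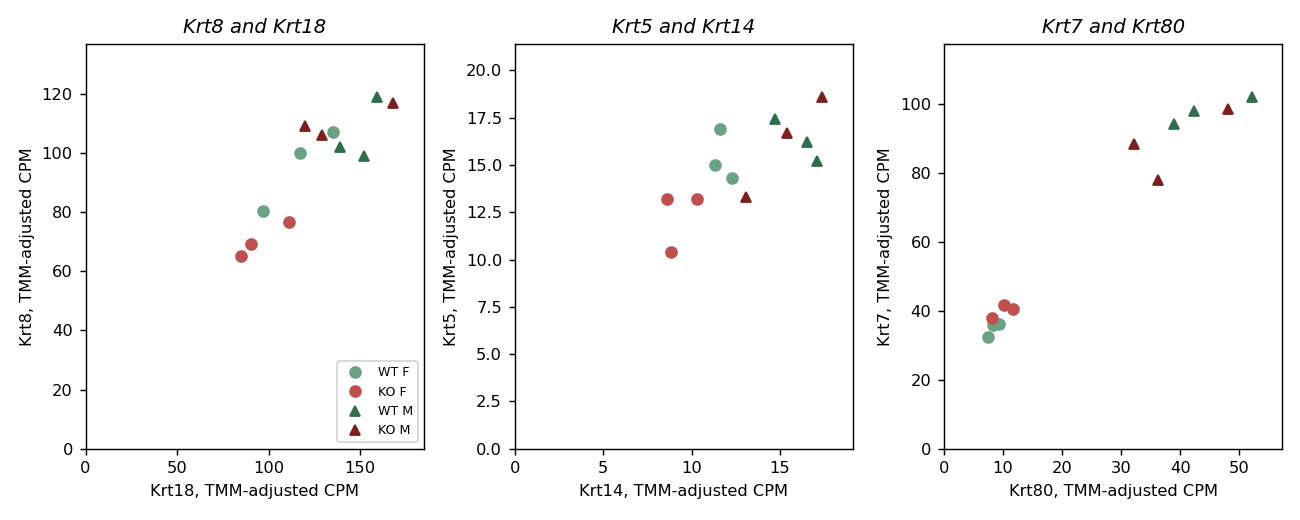
Each point is 1 of the 12 glands, with TMM-adjusted CPM of Krt8 against Krt18, Krt5 against Krt14 and Krt7 against Krt80 (circles, females, triangles, males). Krt8 was high where Krt18 was high (r = 0.90), whereas the Krt7 and Krt80 points form a female and a male cluster.

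The genes most like each keratin over the 12 libraries were found among all 17893 tested. For Krt7 they were Mapt (the tau protein), Krt80 (a type II keratin of the same chromosome) and Kif26b (a kinesin-family protein), each at r = 0.99. For Krt8 they were Rabac1, Puf60 and Tufm at 0.98, and for Krt18 Ddr1 (a collagen receptor) at 0.97 and Gprc5c and Mtarc2 at 0.96. For Krt14 they were Loxl2 (a lysyl oxidase) at 0.98 and Leprotl1 and Ipo9 at 0.96, and for Krt17 Dctn6, Imp4 and Atf6 at 0.98. For Krt5 they were Anxa1 (an annexin) at 0.90, Rab35 at 0.86 and Zbtb9 at 0.85. For Krt15 they were Gm10605 at 0.92, Zfp1003 at 0.91 and Tspyl4 at 0.89, and for Krt19 Nin and Apaf1 at 0.95 and Epb41l2 at 0.94. These values describe males and females together and were not tested.

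Of 48 identifiers of other keratins, which hold 47 symbols since Krt74 has 2, 4 passed the filter (Krt10, Krt23, Krt75 and Krt80), 39 had under 10 counts in every library and 13 had none at all. Krt80 was called between the sexes in both genotypes and the other 3 were not called. This was 25.0% of the 4 tested, against 36.5% of all genes in wild type and 43.5% in the knockout. Krt10, a keratin of stratified epithelium, did not pass between wild-type males and females (−0.81, SE 0.33, edgeR adjusted p = 0.074) but was called lower in males under upper-quartile scaling (adjusted p = 0.046), by DESeq2 (0.035), with the replicate block (0.044) and without wild-type female 1 (0.046) or wild-type male 2 (0.02). Krt23 was called lower in males without wild-type female 1 (−0.55, adjusted p = 0.037). For Krt80, females had 9.36, 8.26 and 7.38 CPM in wild type and 10.1, 11.7 and 8.15 in knockout. Males had 42.3, 39 and 52.1 CPM in wild type and 48.1, 32.1 and 36.2 in knockout. Every male lay above every female in Krt80, at 5.33-fold in wild type (log2 fold change 2.41, SE 0.18, edgeR adjusted p = 6.1e-07) and 3.88-fold in knockout (1.96, SE 0.18, adjusted p = 3.1e-06).

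Krt6a, a type II keratin that is induced in wounded and stratified epithelium, had 0 to 13 counts in 11 libraries and 88 in knockout male 2. Krt13, of stratified oral epithelium, had 11 counts in that library and at most 2 elsewhere. Both genes were picked after their values were seen, and this is the library with the highest Krt19 and, among males, the highest Krt15. Summed markers of stratified oral or skin epithelium stood there at 2.68 CPM, the highest of the 6 males (1.38 to 2.24 in the other 5) and within the 1.83 to 2.79 CPM of the females, and it had the highest summed fibroblast markers of the 12 libraries, at 891 CPM against 323 to 706 in the others, beside its 31.5 CPM of adipocyte markers. The part of any of these cells in its Krt19 and Krt15 levels was not tested.

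Keratin filaments end at desmosomes between cells and at hemidesmosomes on the basement membrane. Of 12 desmosome genes tested, 4 fell in knockout females and none rose (median log2 fold change −0.14), which was near the background (33.3% called, against 36.9% of all genes). With the authors' factors 8 were called, and 6195 of 17893 genes in all. Among the 4 were the desmosomal cadherins Dsc3 (−0.80, SE 0.20, edgeR adjusted p = 0.0087) and Dsg2 (−0.56, SE 0.14, adjusted p = 0.0084) and the desmosomal protein Perp (−0.73, SE 0.16, adjusted p = 0.0036). In males none was called by edgeR, against 0.235% of all genes, and 1 had an unadjusted p under 0.05. DESeq2 called 1 of them, and 406 of 16814 genes in all. Between the sexes, 6 were higher in wild-type males, led by the plakophilins Pkp1 (2.01, SE 0.22, edgeR adjusted p = 1.7e-05) and Pkp4 (1.29, SE 0.15, adjusted p = 2.6e-05), against 20.5% of all genes higher. In knockout males 8 were higher and 1 lower than in knockout females, against 23.2% and 20.3% of all genes.

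Of 9 hemidesmosome and laminin-332 genes, 7 were higher in wild-type males than in wild-type females and none was lower (median 0.73), against 20.5% of all genes higher. Among them were the laminin chain Lamb3 (1.01, SE 0.12, edgeR adjusted p = 2.4e-05) and the linker Plec (1.05, SE 0.14, edgeR adjusted p = 9.6e-05). In knockout males 5 were higher and 2 lower than in knockout females, against 23.2% and 20.3% of all genes. In knockout females 2 of the 9 were called, against 36.9% of all genes. The tetraspanin Cd151 fell (−0.66, SE 0.13, edgeR adjusted p = 0.0019) and Dst, which encodes a keratin linker, rose (0.94, SE 0.21, adjusted p = 0.0038). In males none was called by edgeR, against 0.235% of all genes, and 1 had an unadjusted p under 0.05. DESeq2 called 1 of them, and 406 of 16814 genes in all.

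Among 10 other intermediate filament genes tested, 1 was called in knockout females, against 36.9% of all genes. It was Lmna, the gene of the A-type nuclear lamins, which fell (−0.51, SE 0.08, edgeR adjusted p = 0.00076). Without wild-type female 2, the list had 2 calls. None was called in males by edgeR or DESeq2, with 2 at an unadjusted p under 0.05. Of the 10, 3 were higher and 3 lower in wild-type males than in wild-type females (median 0.08), against 20.5% and 16% of all genes. In knockout males 5 were higher and none lower than in knockout females, against 23.2% and 20.3% of all genes. Synm (synemin) was 1.95 higher on the log2 scale in wild-type males (SE 0.17, edgeR adjusted p = 1.9e-06) and 1.98 higher in knockout males (SE 0.17, adjusted p = 1.9e-06). Of 15 transcription factors of epithelia, 5 were higher and 5 lower in wild-type males, against 20.5% and 16% of all genes, with Elf5 at −1.24 (SE 0.13, edgeR adjusted p = 1.2e-05) and Sox9, a duct and progenitor factor, at −1.0 (SE 0.15, adjusted p = 0.00016). In knockout females 2 of them were higher and 2 lower (26.7% called, against 36.9% of all genes), and leaving out 1 library at a time gave 0 to 5 calls. In males none was called by edgeR, 4 had an unadjusted p under 0.05 and DESeq2 called 2, out of 406 calls among the 16814 genes to which it gave an adjusted p. Without knockout male 1 edgeR called 4 of them, and 635 of 18575 genes in all.

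Markers of the cell types that carry basal keratins were compared too. Of 6 myoepithelial genes tested, 3 fell in knockout females, Acta2 (−0.84, SE 0.17, edgeR adjusted p = 0.0026), Tagln (−0.80, SE 0.21, adjusted p = 0.0098) and Cnn1 (−0.77, SE 0.24, adjusted p = 0.022), against 19.3% of all genes lower. All 6 were higher in males of either genotype, against 20.5% of all genes in wild type and 23.2% in the knockout. The 7 markers summed to 152 to 217 CPM in wild-type and 123 to 146 in knockout females, and to 465 to 581 in wild-type and 355 to 524 in knockout males, with none at 0. Of 6 basal duct genes tested, 2 rose in knockout females, Dst (above) and the cadherin Cdh3 (0.37, SE 0.13, edgeR adjusted p = 0.035), and none fell, which was near the background (33.3% called, against 36.9% of all genes). The 7 basal duct markers summed to 151 to 182 CPM in wild-type and 218 to 238 in knockout females, and to 342 to 422 in wild-type and 333 to 371 in knockout males. Most of the difference between the female sums came from Dst, which had 59.1 ± 18.7 CPM (SD, n = 3) in wild-type and 114 ± 9.52 in knockout females, whereas Trp63, a transcription factor of basal cells, had 15.4 ± 1.62 and 13.5 ± 2.70, Col17a1 11.3 ± 1.14 and 11.4 ± 0.273, and Itgb4 67.0 ± 4.44 and 70.8 ± 6.27. Most of the difference between the sexes' sums came from Ngfr, a neurotrophin receptor, which had 9.57 ± 1.18 CPM in wild-type and 11.8 ± 4.50 in knockout females, and 185 ± 43.5 in wild-type and 182 ± 8.53 in knockout males. Of the 6 basal duct genes, 4 were higher and 1 lower in wild-type males, against 20.5% and 16% of all genes. In knockout males 1 was higher (Ngfr) and 1 lower (Itgb4, −0.69, SE 0.15, edgeR adjusted p = 0.0022), which was near the background (23.2% higher and 20.3% lower). The part of either cell type in the Krt14 and Krt17 values was not tested.

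Ductal and acinar markers also moved between the sexes. The 7 granular convoluted tubule markers summed to 4390 to 9160 CPM in the 6 females and 53100 to 96400 in the 6 males, and 6 of 7 were called higher in wild-type males, against 20.5% of all genes. Klk1, which made up most of the female sums, went the other way. It had 5990 ± 1860 CPM (SD, n = 3) in wild-type and 5850 ± 1770 in knockout females. In males it had 2920 ± 151 in wild type and 2260 ± 612 in knockout. The 7 striated duct markers summed to 260 to 314 CPM in females and 298 to 436 in males, which overlapped, but members differed in both directions. In wild-type males 4 were higher and 1 lower, against 20.5% and 16% of all genes, and in knockout males 4 were higher and 2 lower, against 23.2% and 20.3%. The epithelial sodium channel subunits Scnn1b (4.30-fold, edgeR adjusted p = 4.4e-07), Scnn1g (3.71-fold, adjusted p = 3e-06) and Scnn1a (2.50-fold, adjusted p = 2.7e-05) were higher in wild-type males, and the potassium channel Kcnma1 was 2.06-fold lower in knockout males than in knockout females (adjusted p = 0.00011). The 3 intercalated duct genes were all lower in males of either genotype, against 16% of all genes in wild type and 20.3% in the knockout. Of 7 acinar markers, 4 were lower in males of either genotype and none was higher, against 16% of all genes lower in wild type and 20.3% in the knockout. Aqp5 (−1.18, SE 0.17, edgeR adjusted p = 0.00012), the transcription factor Bhlha15 (−1.04, SE 0.16, adjusted p = 0.00029) and Slc12a2 (−1.13, SE 0.24, adjusted p = 0.0026) were lower in wild-type males. These 3 genes did not overlap between the sexes in either genotype. Of the 7 markers, 4 did not overlap in wild type and 3 in the knockout, against 47.6% and 54.8% of all genes tested. The acinar sums overlapped, at 2030 to 7170 CPM in females and 985 to 9540 in males. Of the genes in them, the mucin gene Muc19 ran from 7.15 to 4900 CPM in knockout females and from 2.59 to 7390 in wild-type males, and the secreted protein gene Bpifa2 from 0.0942 to 2030 in knockout males. The part of these cell types in the Krt7 difference was not tested.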

How the data were processed

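Per the labels and the study's methods, RNA from whole SMGs was sequenced after ribosomal RNA removal as stranded paired-end libraries, although the labels name polyA RNA as the molecule. The authors assigned reads to Gencode M35 transcripts (GRCm39) with Salmon 1.10.1 and deposited estimated counts summed per gene. The authors also deposited a table of normalized signal, in which each count was divided by a factor that differs between genes and libraries, which was used only for alternatives. Groups came from the deposited labels. Here the estimated counts were rounded to whole numbers. In R 4.3.3, edgeR 4.0.16 was used with TMM, filterByExpr defaults and 1 mean per group over all 12 libraries. The quasi-likelihood test was followed by Benjamini-Hochberg adjustment within each comparison, with calls at an adjusted p under 0.05. SE was derived as the log2 fold change over the root of the F statistic, and a prior count of 2 was added for log2 CPM. Levels per kilobase divided CPM by merged exon length. Positions came from Gencode M39, which held 55563 of the 56065 identifiers.

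No columns were identical. Nothing says whether mice shared cages or litters, so p-values measure the spread between the mice sampled, with counting error included. Error from dividing reads between genes, which lies behind the estimated counts, is covered only in part. The steps were tested on simulated data. The members and gene lists were chosen with earlier results of these data known. Genes named are the 8 members, other keratins that were called, up to 3 genes with the smallest adjusted p per list and comparison, and the 3 genes most correlated with each member, except that 1 gene is not reported here. Krt6a, Krt13, Krt20, Trp63, Col17a1, Itgb4, Klk1, Muc19 and Bpifa2 were picked after their values were seen. Alternatives were RLE and upper-quartile scaling, the authors' factors, 20 abundant genes left out, no filter or at least 10 counts, DESeq2 1.42.0, a fit within the groups compared, a replicate block and each library left out.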

Additional observations from a re-analysis of the deposited data

Results flagged for a closer look

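Among 46 tested genes of the desmosome, hemidesmosome, other intermediate filament and epithelial transcription factor lists, 8 had a called difference between the female and the male genotype contrast (edgeR interaction, female minus male, adjusted p under 0.05), and none of the 8 keratins had one. The 8 were 17.4% of these genes, below the 25.7% of all genes. Lmna, of the nuclear lamina, differed by −0.70 on the log2 scale (adjusted p = 0.004), with −0.51 (SE 0.08) in females and 0.18 (SE 0.08) in males. Dst differed by 1.27 (adjusted p = 0.01), with 0.94 (SE 0.21) and −0.33 (SE 0.20). Both were called in 12 of 12 fits that left out 1 library.

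Cd151 differed by −0.63 (adjusted p = 0.025), with −0.66 in females and −0.04 in males, and was called in 11 of 12 such fits, the exception being without wild-type male 1 (adjusted p = 0.067). The other differences lay near the threshold and lost their call in most fits that left out 1 library. With the replicate number as a block, only 1 desmosome gene and 1 transcription factor were called. RLE scaling, the authors' factors and the 20 most abundant genes left out also gave 1 desmosome call each. Perp differed by −0.65 (adjusted p = 0.048, called in 3 of 12 fits, highest adjusted p = 0.12, value −0.89 to −0.55) and Pkp4 by 0.61 (adjusted p = 0.049, 2 of 12, highest 0.13, value 0.48 to 0.78). Grhl2 differed by 0.62 (adjusted p = 0.027, 4 of 12, highest 0.082, value 0.48 to 0.81), Grhl3 by 1.48 (adjusted p = 0.034, 4 of 12, highest 0.096, value 1.07 to 1.63) and Tfap2a by 0.39 (adjusted p = 0.045, 2 of 12, highest 0.18, value 0.27 to 0.46). Grhl2, Grhl3 and Tfap2a are transcription factors of surface epithelia.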

How the results depend on the processing

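Of the counts of called keratins under an alternative, 64 stayed within 1.5 times the reported count, 14 were higher and 2 lower. Of the keratin fold changes, 571 kept their direction and their side of the threshold, 24 gained a call, 19 lost one and 21 changed sign. In females the 3 calls became 1 to 6 with 1 library left out. For the interaction, the 0 calls of edgeR became 1 under RLE, upper-quartile scaling, the authors' factors, the 20 most abundant genes left out, at least 10 counts in every library and DESeq2, and 0 to 2 with 1 library left out. The gene was Krt8 (−0.55, −0.67, −0.57, −0.49 and −0.55) except under upper-quartile scaling, where it was Krt7 (0.43). In the knockout sex comparison the 7 calls became 4 under upper-quartile scaling and 5 to 7 with 1 library left out. In wild type the 4 calls became 4 to 5 with 1 library left out, and in males 0 calls stayed 0. The cause of these changes was not tested.

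The values that changed sign were close to 0 or rested on few counts. For Krt5 in males the value became 0.01 (RLE, upper-quartile scaling, DESeq2), 0.02 (20 most abundant genes left out, at least 10 counts, a fit within males) and −0.11 to 0.12 with 1 library left out, and in wild type between the sexes −0.01 without wild-type female 1. The Krt19 interaction became −0.01 (RLE), −0.15 (authors' factors) and −0.02 (20 most abundant genes left out), and ranged from −0.44 to 1.20 with 1 library left out. Krt8 between wild-type males and females became −0.04 with the authors' factors, Krt14 in males 0.03 without knockout male 3 (range −0.17 to 0.03 with 1 library left out) and Krt15 in females 0.21 without wild-type female 2 (range −0.68 to 0.21). In females, Krt18 was called with the authors' factors (−0.45, adjusted p = 0.047) and Krt5 by DESeq2 (−0.35, adjusted p = 0.049), Krt14 lost its call without the filter or with at least 10 counts (adjusted p = 0.055 each), and Krt17 in a fit of females alone (adjusted p = 0.056). Between knockout males and females, DESeq2 did not call Krt19 (adjusted p = 0.074) and a fit of these groups alone did not call Krt5 (adjusted p = 0.056). Upper-quartile scaling raised the share of higher genes among all female calls to 59.7%, from 44.7% under RLE, and moved the median of all genes to 0.13 in females and 0.11 in the interaction.

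The labels number the mice 1 to 3 in each group but do not say that a number pairs them. Deviations from the group means correlated between same-numbered mice at −0.11 to 0.05 in females and −0.13 to 0.09 in males, and between the sexes at −0.06 to 0.27 in wild type and −0.04 to 0.09 in the knockout. With the replicate number as a block, 3 keratins were called in females, 0 in males, 0 in the interaction, 5 in wild type between the sexes, where the added call was Krt19, and 7 in the knockout. At these depths Krt15 (6 to 84 counts) was the keratin most limited by counting error.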

Other observations

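The genes nearest to Krt7 had the same split of the sexes. Mapt, which encodes the microtubule protein tau, had 12.4, 12.8 and 11.2 CPM in wild-type and 14.5, 15.6 and 14.5 in knockout females. Males had 82.7, 57.6 and 80.1 CPM in wild type and 81.4, 55.5 and 56.3 in knockout. Kif26b had 6.70 to 13.9 CPM in the 6 females and 35.4 to 61.5 in the 6 males. These genes were picked by their likeness to Krt7, so that their separation by sex is a description.

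Krt20, a keratin of simple epithelia that did not pass the filter, had 35 counts in knockout female 2, 11 in wild-type female 1 and at most 6 in the other libraries. It was picked after its values were seen.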
